A study of Mus musculus with 4 samples.

Results

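The miR-23, miR-27 and miR-24 clusters are a pair of genomic loci that each encode 3 miRNA hairpins. The members were the 5 probes of the deposited table named mmu-miR-23a, mmu-miR-23b, mmu-miR-27a, mmu-miR-27b and mmu-miR-24, out of 566 mouse miRNA probes. The assay was nanoString nCounter miRNA profiling, in which each miRNA is reported by a probe with its own fluorescent barcode and single barcodes are counted. Oncogenic epidermal cells came from the back skin of adult R26stoprtTA/+ Col-tetO-YAPS127A/+ mice that carried K14-Cre, a Cre transgene active in basal keratinocytes, so that doxycycline switched on YAP S127A, a constitutively active form of the coactivator restrained by the Hippo pathway. Normal epidermal cells came from mice with the same R26stoprtTA/+ Col-tetO-YAPS127A/+ alleles and no Cre. Both groups drank 1 mg/ml doxycycline for 8 days. The cells were scraped from trypsin-treated skin, a preparation that the protocol describes as enriched for skin progenitors and that was not sorted by a marker. In their titles the oncogenic samples are named tumours, and the groups here follow the condition label instead. There were 2 oncogenic and 2 normal samples. The protocol gives 6 control animals and does not say how animals map to samples, so p-values reflect the spread among these samples alone, and that spread may be technical.

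A miRNA guides Argonaute proteins to target mRNAs mainly through its seed, bases 2 to 8 from the 5′ end. The 3 hairpins of a cluster are cut out of a shared primary transcript, after which each mature miRNA is loaded and turned over on its own. The clusters are known for high levels in endothelial cells, and in the epidermis miR-24 and miR-23b have been linked to keratinocyte differentiation. In human cancer cells miR-23a and miR-23b repress glutaminase, and miR-27 represses PPARγ in fat cell precursors.

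On the mouse assembly GRCm38.p6 the a locus, with Mir23a, Mir27a and Mir24-2 in that order, spans 404 bases of the plus strand at chr8:84208518-84208921, between the protein-coding genes Nanos3 and Zswim4 and inside neither. The b locus, with Mir23b, Mir27b and Mir24-1, spans 792 bases of the plus strand at chr13:63300484-63301275 and lies within the gene Aopep. The gap between the miR-23 and miR-27 hairpins is 79 bases at the a locus and 154 bases at the b locus. The gap between the miR-27 and miR-24 hairpins is 56 bases at the a locus and 423 bases at the b locus. The mature sequences below, from RefSeq, show how alike the members are, with the seed in capitals.
miR-23a-3p, chr8:84208563-84208583: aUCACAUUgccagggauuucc
miR-27a-3p, chr8:84208727-84208747: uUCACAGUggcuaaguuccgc
miR-27b-3p, chr13:63300760-63300780: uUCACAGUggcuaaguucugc
miR-24-3p, chr8:84208875-84208896 and chr13:63301251-63301272: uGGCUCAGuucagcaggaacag
miR-23b-3p is the fifth member. Counted from the 5′ end, miR-27a-3p and miR-27b-3p differ by 1 substitution, C19U, and share the seed. The seeds of miR-23a-3p and miR-27a-3p match at 6 of 7 bases and differ by U7G. The 2 loci make the same mature miR-24-3p from unlike hairpins, shown here because the miR-24 probe therefore cannot tell the loci apart, with the mature arm in capitals.
Mir24-2, a locus, chr8:84208815-84208921: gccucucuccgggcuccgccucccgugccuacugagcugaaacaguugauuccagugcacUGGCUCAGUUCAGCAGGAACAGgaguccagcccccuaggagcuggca
Mir24-1, b locus, chr13:63301208-63301275: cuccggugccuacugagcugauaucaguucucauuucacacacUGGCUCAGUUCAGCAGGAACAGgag
Probes for miRNAs that differ by single bases may share signal. Values within the miR-27 pair and within the miR-23 pair, and all ratios that use them, carry that uncertainty.

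Values are normalized barcode counts, whole counts times 1 factor per sample. The miRNA counts recovered from them were 230284 and 53709 in the oncogenic samples and 189058 and 156092 in the normal samples. Oncogenic replicate 2 was the shallowest, with a factor of 1.76 against 0.861 to 0.878 in the other samples. The probes of viral miRNAs, which have no target in mouse RNA, reached at most 18.3 and 22.9 in oncogenic and 17.6 and 27.6 in normal samples. All 5 members lay above 100 in all 4 samples. The keratinocyte markers miR-205 and miR-203 summed to 35808 and 31307 in oncogenic and 33512 and 50742 in normal samples. Differences were tested with limma on log2(value + 1) over the 124 miRNAs that reached 30 in 2 or more samples, all 5 members included, and p-values were adjusted by Benjamini and Hochberg's method against a threshold of 0.05. The 95% intervals given with limma values are not adjusted for the number of miRNAs.

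By limma 0 of the 5 members passed the test, where 4.03% of all tested miRNAs did, and 0 had an unadjusted p under 0.05, where 24.2% of all did. edgeR and DESeq2 on the recovered counts also called 0 of the 5. miR-23a and miR-23b were lower in each oncogenic sample than in either normal sample, and the groups overlapped for miR-27a, miR-27b and miR-24. Such an order with both oncogenic samples lower was found for 38.7% of all tested miRNAs, and the opposite order for 12.9%. The members' log2 differences, oncogenic minus normal, had a median of -0.19, and the median of all tested miRNAs was also -0.19. Within a sample, the miR-23 values were lower against their miR-27 neighbours in both oncogenic samples than in both normal samples, at the a and at the b locus. Neither ratio difference passed the adjusted threshold. That order was found for 39.0% of all miRNAs relative to miR-27a and for 32.5% relative to miR-27b. Whether the miR-27b probe also counted miR-27a was not tested, so the b locus is not an independent second case.

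**Figure D1:**
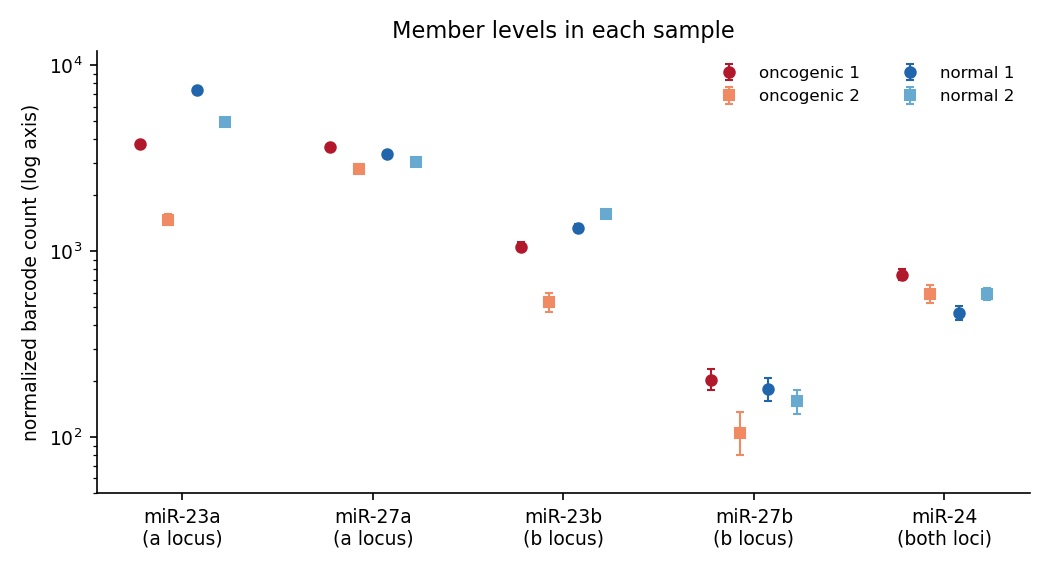
Normalized barcode counts of the 5 members (log axis) in the 2 oncogenic and 2 normal samples, with 95% exact Poisson intervals of the counts. The oncogenic points lie below the normal points for miR-23a and miR-23b and overlap with them for miR-27a, miR-27b and miR-24.

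miR-23a, the first hairpin of the a locus, had 3777 and 1479.5 normalized counts in oncogenic cells, against 7349 and 4959 in normal cells. The oncogenic samples were both lower, and they also lay further from each other, 2.55-fold, than the normal samples, 1.48-fold. It averaged 2628 ± 1625 in oncogenic and 6154 ± 1690 in normal cells (SD, n = 2 each), a 2.55-fold lower geometric mean. The log2 difference was -1.35 (SE 0.55, 95% interval -2.82 to 0.12, limma adjusted p = 0.220), or -1.16 once the median of the tested miRNAs was subtracted. The difference was negative under all 7 other scalings between samples, from -1.76 with the housekeeping mRNA probes to -0.81 with centring on the median. It depended on which oncogenic sample was kept: without oncogenic replicate 1 it was -2.03, and without oncogenic replicate 2 it was -0.68.

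miR-23b, the first hairpin of the b locus, had 1059.6 and 532 normalized counts in oncogenic cells, against 1331 and 1594 in normal cells. Here too the oncogenic samples were both lower, and replicate 2 was the lowest of the 4 samples. It averaged 796 ± 373 in oncogenic and 1462 ± 186 in normal cells (SD, n = 2 each), a 1.94-fold lower geometric mean. The log2 difference was -0.96 (SE 0.41, 95% interval -2.05 to 0.13, limma adjusted p = 0.238), or -0.76 after subtraction of that median. It was negative under all 7 other scalings, from -1.36 to -0.42. Without oncogenic replicate 1 it was -1.45, and without oncogenic replicate 2 it was -0.46.

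miR-27a, the middle hairpin of the a locus, had 3635 and 2759.98 normalized counts in oncogenic cells, against 3319 and 3010.2 in normal cells. The oncogenic samples were the highest and the lowest of the 4. It averaged 3197 ± 619 in oncogenic and 3165 ± 219 in normal cells (SD, n = 2 each). The log2 difference was 0.0029 (SE 0.28, 95% interval -0.74 to 0.74, limma adjusted p = 0.992), and 0.19 after subtraction of the median. The sign turned negative when samples were scaled to the positive control probes or to the mRNA probes, whether or not Gapdh was counted among them, and it was positive under the other 4 scalings.

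miR-27b, the middle hairpin of the b locus, was the lowest member, at 204 and 105.7 normalized counts in oncogenic cells, against 180.95 and 156 in normal cells. Again oncogenic replicate 1 was the highest and oncogenic replicate 2 the lowest sample. The value in oncogenic replicate 2 rested on 60 recovered counts, which gives it a 95% exact Poisson interval of 80.6 to 136. It averaged 155 ± 69.8 in oncogenic and 168 ± 17.7 in normal cells (SD, n = 2 each). The log2 difference was -0.19 (SE 0.42, 95% interval -1.32 to 0.94, limma adjusted p = 0.841), or 0.00085 after subtraction of the median, and it was positive with centring, the 100 most abundant miRNAs, quantile normalization and TMM factors.

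miR-24, the last hairpin of both loci, had 750.4 and 592 normalized counts in oncogenic cells, against 467 and 593 in normal cells. Oncogenic replicate 1 was the highest sample, and oncogenic replicate 2 and normal replicate 2 were nearly equal. It averaged 671 ± 112 in oncogenic and 529.9 ± 88.6 in normal cells (SD, n = 2 each). The log2 difference was 0.34 (SE 0.27, 95% interval -0.39 to 1.07, limma adjusted p = 0.558), 0.53 after subtraction of the median, and negative only with scaling to the mRNA probes with Gapdh. At both loci the miR-23 difference was thus more negative than the miR-27 difference, and miR-24 could not be split by locus.

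**Figure D2:**
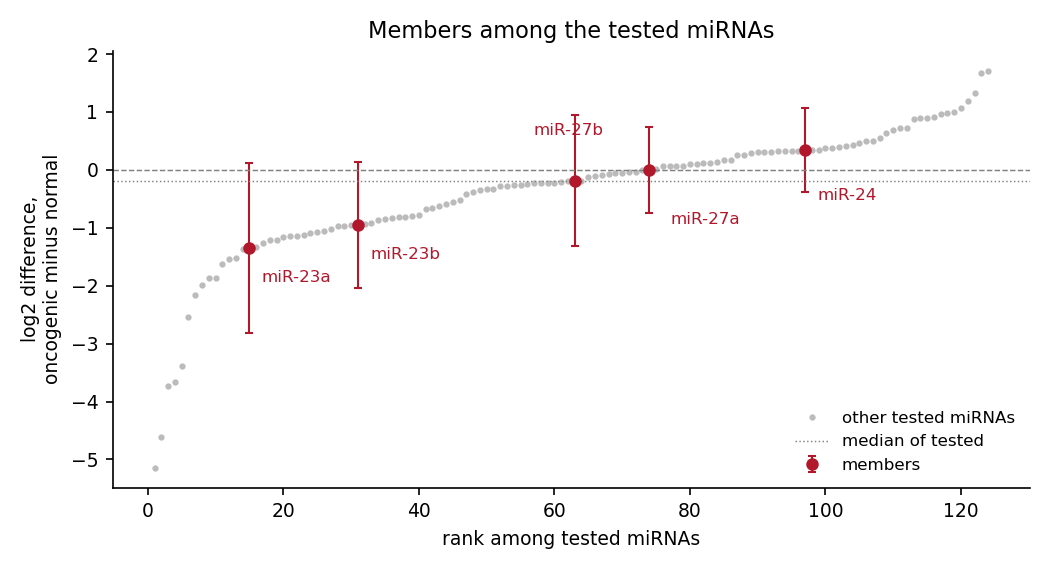
Log2 differences (oncogenic minus normal) of the 124 tested miRNAs in rank order, with the 5 members in red and their 95% limma intervals. miR-23a ranks 15 and miR-23b 31 from the most negative, miR-27b lies at the median, and all 5 intervals include 0.

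By rank of the deposited value, miR-23a was number 8 and 12 of the 566 miRNA probes in the oncogenic samples and number 6 in both normal samples. miR-27a ranked 9 and 6 in oncogenic and 8 in both normal samples. miR-23b ranked 22 and 31 in oncogenic and 20 and 19 in normal samples, and miR-24 ranked 28 and 29 in oncogenic and 36 and 32 in normal samples. miR-27b ranked 52 and 59 in oncogenic and 60 and 65 in normal samples. Together the 5 members took 4.69% and 5.78% of all miRNA counts in the oncogenic samples, against 7.62% and 7.67% in the normal samples. This share lay below the normal range in both oncogenic samples, and with 2 against 2 samples an exact two-sided permutation test cannot go below p = 0.333. In the deposited values, a different measure, 38.7% of all tested miRNAs had that order. The total also holds miR-720, whose mean log2 value was 15.1 in oncogenic and 14.5 in normal cells (difference 0.64, SE 1.27). The share alone cannot tell a change in the members from a change in such probes.

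The ratio of 2 members within a sample does not depend on the factor of that sample. Its level also holds the efficiencies of the 2 probes, so that only its difference between groups is compared. There were 4 such comparisons, 2 within a locus and 2 between the loci. For each, limma was fitted to all 123 other tested miRNAs relative to the lower member of the pair, and p-values were adjusted over that fit.

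Within the a locus the miR-23a to miR-27a ratio was 1.04 and 0.536 in oncogenic cells, against 2.21 and 1.65 in normal cells. The barcode of miR-23a thus outnumbered that of miR-27a in both normal samples, was close to it in oncogenic replicate 1 and was the rarer in oncogenic replicate 2. As a share of the pair's counts, miR-23a made up 51.0% (95% exact binomial interval 49.9% to 52.0%) and 34.9% (33.0% to 36.8%) in oncogenic samples, against 68.9% (68.1% to 69.7%) and 62.2% (61.2% to 63.2%) in normal samples. These intervals cover counting error only, and no oncogenic interval met a normal one. The difference in log2 ratio was -1.36 (SE 0.40, 95% interval -2.33 to -0.38), a 2.56-fold lower ratio, with a limma adjusted p = 0.0978, and an exact permutation test over samples gave p = 0.333, the smallest it allows. In the fit relative to miR-27a, 8.13% of miRNAs passed the threshold and 39.0% were lower in each oncogenic than in either normal sample. The ratio difference was -0.88 without oncogenic replicate 2 and -1.83 without oncogenic replicate 1. With no filter on low values it passed the threshold (limma adjusted p = 0.0332). That fit held 565 miRNAs, most of them too low for the main test, and called 11 lower and 1 higher. Its estimate of the spread thus also rests on low probes.

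Within the b locus the miR-23b to miR-27b ratio was 5.18 and 5.03 in oncogenic cells, against 7.35 and 10.2 in normal cells. Both oncogenic samples were again lower, and here they lay close together. miR-23b made up 83.8% (95% exact binomial interval 81.8% to 85.7%) and 83.4% (79.2% to 87.1%) of the pair's counts in oncogenic samples, against 88.0% (86.4% to 89.5%) and 91.1% (89.8% to 92.3%) in normal samples. The interval of oncogenic replicate 2, which rests on 302 and 60 counts, met that of normal replicate 1. The difference in log2 ratio was -0.76 (SE 0.49, 95% interval -1.74 to 0.21), a 1.70-fold lower ratio, with a limma adjusted p = 0.419 and an exact permutation p = 0.333. In the fit relative to miR-27b, 7.32% of miRNAs passed and 32.5% were lower in each oncogenic than in either normal sample. It was between -1.001 and -0.53 when any 1 sample was left out.

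**Figure D3:**
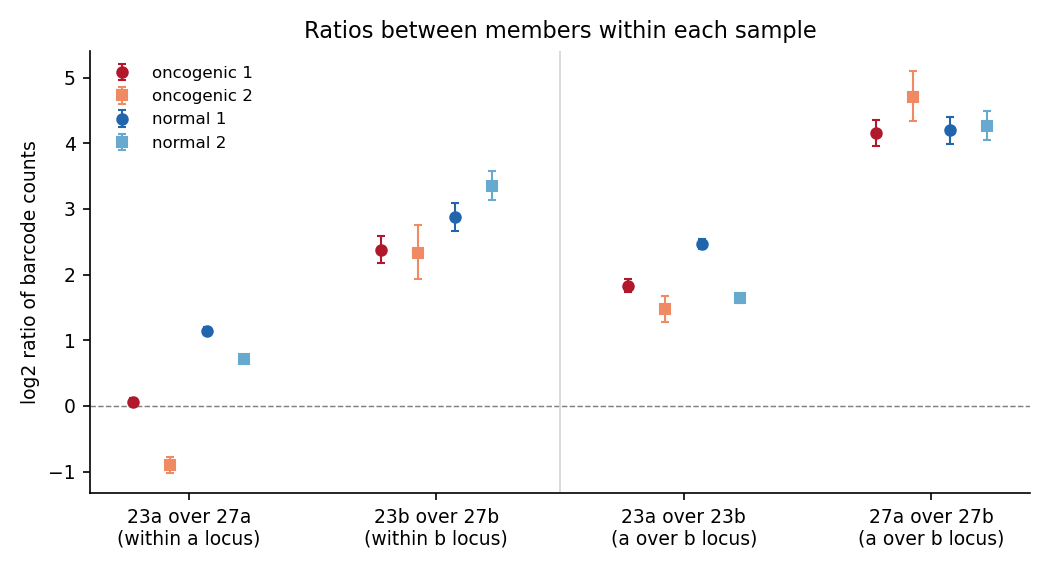
Log2 ratio of barcode counts for 4 pairs of members in each sample, with 95% exact binomial intervals. Both oncogenic points lie below both normal points for 23a over 27a and 23b over 27b, within a locus, and the groups overlap for 23a over 23b and 27a over 27b, between loci.

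Between the loci, the miR-23a to miR-23b ratio was 3.56 and 2.78 in oncogenic cells, against 5.52 and 3.11 in normal cells. Oncogenic replicate 1 fell between the 2 normal samples, so the groups overlapped. The difference in log2 ratio was -0.40 (SE 0.63, 95% interval -1.66 to 0.87, limma adjusted p = 0.690, exact permutation p = 0.667), and without normal replicate 1 it was 0.017. In the fit relative to miR-23b 13.0% of miRNAs passed. These data do not resolve a difference, and the interval reaches more than 1 log2 unit below 0.

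The miR-27a to miR-27b ratio was 17.8 and 26.1 in oncogenic cells, against 18.3 and 19.3 in normal cells. Oncogenic replicate 2 stood above the other 3 samples, but its binomial interval for the ratio, 20.2 to 34.4, met those of the other 3, which reached 20.4 in oncogenic replicate 1 and 21.2 and 22.5 in the normal samples. The difference in log2 ratio was 0.19 (SE 0.54, 95% interval -0.87 to 1.25, limma adjusted p = 0.909, exact permutation p = 1), and it was -0.08 without oncogenic replicate 2. Summed over miR-23 and miR-27, the a locus to b locus ratio was 5.86 and 6.65 in oncogenic cells, against 7.06 and 4.55 in normal cells (exact permutation p = 1). The normal samples were the highest and the lowest of the 4, so the spread between the normal samples exceeded the difference between groups. The lone sample of a group, wherever one was left out, was assumed to vary like the other group.

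After the values had been seen, the 2 miR-23 probes were summed and set against the 2 miR-27 probes. This ratio was 1.26 and 0.702 in oncogenic cells, against 2.48 and 2.07 in normal cells, lower in both oncogenic samples (difference in log2 ratio -1.27, exact permutation p = 0.333). miR-23a made up 73.6% to 84.7% of the miR-23 counts, and miR-27a 94.7% to 96.3% of the miR-27 counts. The summed ratio therefore largely repeats that of miR-23a over miR-27a. Of the counts of all 5 members, miR-23 took 51.3% and 36.8% in oncogenic samples, against 68.6% and 63.6% in normal samples. miR-27 took 40.7% and 52.4% in oncogenic samples, against 27.7% and 30.7% in normal samples. miR-24 took 7.96% and 10.8% in oncogenic samples, against 3.69% and 5.75% in normal samples. The groups did not overlap in any of these 3 shares, which add up to the whole and are not independent of each other. Their levels also hold the efficiencies of the probes. With 2 against 2 samples such orders are common. In the deposited values of single miRNAs, a measure unlike these shares, they were found for 38.7% (both oncogenic lower) and 12.9% (both oncogenic higher) of all tested miRNAs. The shares are therefore given as a description.

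**Figure D4:**
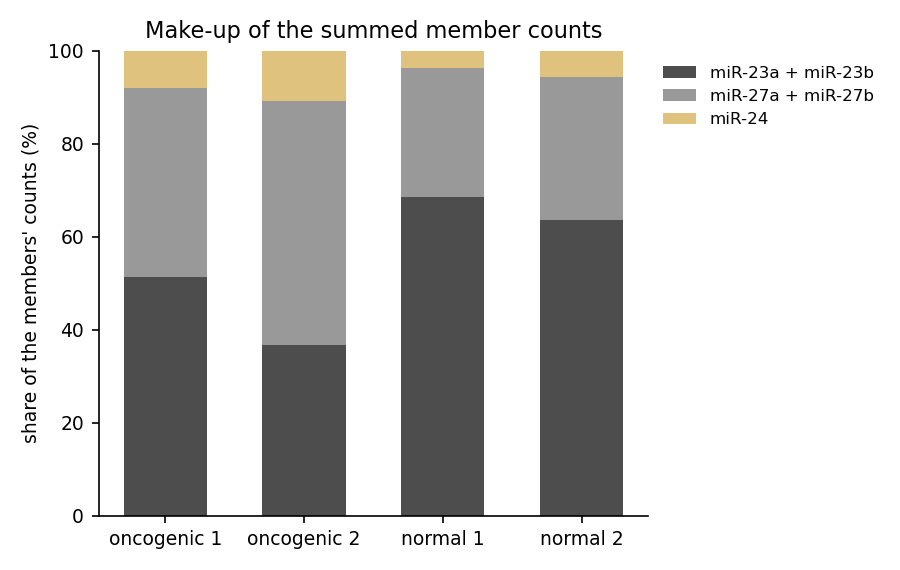
Share of the summed counts of the 5 members held by miR-23, miR-27 and miR-24 (percent) in each sample. miR-23 holds 51.3% and 36.8% in the oncogenic samples, against 68.6% and 63.6% in the normal samples.

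The other 6 pairs among the members were also fitted after their values were known. The miR-23b to miR-24 ratio was 1.41 and 0.899 in oncogenic cells, against 2.85 and 2.69 in normal cells (difference in log2 ratio -1.30, SE 0.33, limma adjusted p = 0.0555). The miR-23a to miR-24 ratio was 5.03 and 2.50 in oncogenic cells, against 15.7 and 8.37 in normal cells (difference -1.69, SE 0.51, adjusted p = 0.0794). The miR-27a to miR-24 ratio was 4.84 and 4.66 in oncogenic cells, against 7.10 and 5.08 in normal cells (difference -0.34, SE 0.33, adjusted p = 0.581). These 3 ratios were lower in both oncogenic samples, and none passed the threshold. In the fit relative to miR-24, 9.76% of miRNAs passed and 52.8% were lower in each oncogenic than in either normal sample. The difference for miR-27b over miR-24 was -0.53 (adjusted p = 0.448) with overlapping groups. The 2 pairs that cross the loci, miR-23a over miR-27b and miR-23b over miR-27a, had differences of -1.16 and -0.96 (adjusted p = 0.238 and 0.101). Both of these ratios were also lower in each oncogenic than in either normal sample. That order was found for 32.5% of all miRNAs relative to miR-27b and for 39.0% relative to miR-27a. The ratios across loci use the same probes as those within a locus and are not independent of them.

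The member pairs were set beside other pairs of miRNAs as a description, without a test. Of 25 listed pairs that share a genomic cluster, 20 had both miRNAs tested, and the size of their difference in log2 ratio had a median of 0.64. Some probes, such as those of miR-16 and miR-29b, are listed with partners from different clusters. Like miR-24, they cannot be split by locus, so such pairs do not measure 1 cluster alone. Only the erythroid pair miR-451 and miR-144, at -1.77, was further from 0 than miR-23a over miR-27a, and both of these miRNAs lay under 30 in both oncogenic samples. For miR-23b over miR-27b, 8 of 20 pairs were further from 0, among them miR-221 over miR-222 at 1.20, miR-15b over miR-16 at 1.11 and miR-30b over miR-30d at 1.08. Of 26 listed pairs of related miRNAs, 23 had both tested, with a median size of 0.59. The 2 lists overlap: miR-29a over miR-29b, miR-221 over miR-222 and miR-106b over miR-93 are also listed as pairs of 1 cluster. In this they are unlike the member pairs between the loci. Of the 23 pairs, 18 were further from 0 than miR-23a over miR-23b and 19 further than miR-27a over miR-27b. The ends of the range were miR-181a over miR-181c at -2.51 and miR-125a-5p over miR-125b-5p at 2.03. In oncogenic cells miR-181a and miR-181c had mean log2 values of 4.64 and 4.76, close to the level that the viral miRNA probes reached.

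**Figure D5:**
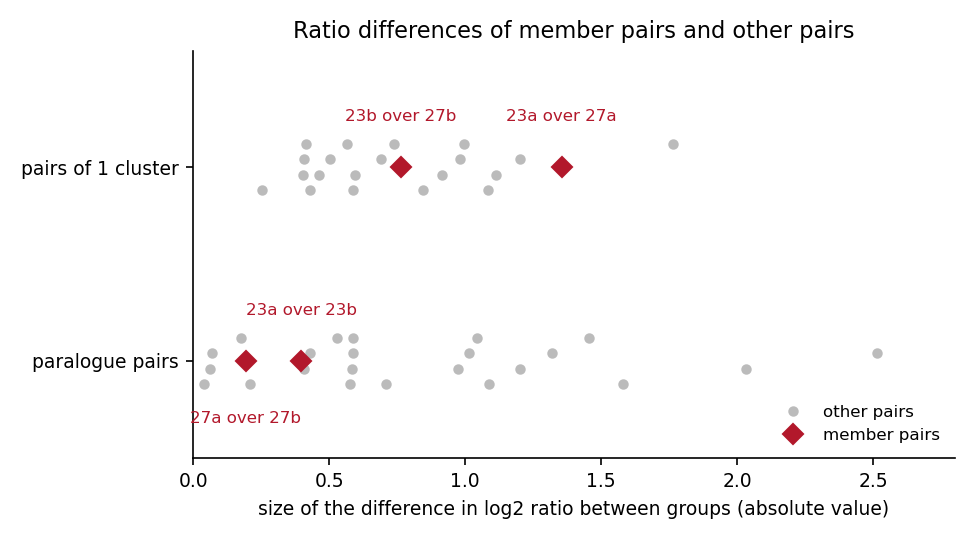
Absolute difference in log2 ratio between oncogenic and normal cells for 20 pairs of miRNAs that share a cluster and 23 pairs of related miRNAs (grey), with the 4 member pairs in red. The pair 23a over 27a lies near the far end of the cluster pairs, and 27a over 27b and 23a over 23b lie near the low end of the related pairs.

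The miRNAs with the profile most like that of each member were found by the root mean square difference between log2 profiles over the 4 samples, each centred on its own mean. For miR-23a these were miR-193, miR-29c, a member of the collagen-targeting miR-29 family, and miR-101a, which targets the Polycomb methyltransferase Ezh2, at 0.13, 0.13 and 0.16. miR-29c had 144.1 and 47.6 normalized counts in oncogenic cells, against 308 and 193 in normal cells. miR-193 had 28.8 and 10.6 in oncogenic cells, against 45.7 and 36.2 in normal cells. miR-101a had 26.2 and 8.81 in oncogenic cells, against 57.1 and 43.1 in normal cells. In oncogenic cells both thus lay close to the level that the viral miRNA probes reached, which limits their likeness to miR-23a. For miR-23b they were miR-3471, miR-152 and miR-30d, at 0.12, 0.17 and 0.17. For miR-27a they were miR-149, let-7a and miR-22, at 0.024, 0.082 and 0.084, all with near-equal groups. let-7a, of the growth-opposing let-7 family, had 2213 and 1848 in oncogenic cells, against 1893 and 1850.02 in normal cells. For miR-27b they were miR-708, miR-378 and miR-1951, at 0.14, 0.15 and 0.20. For miR-24 they were miR-301a, let-7e and miR-19b, at 0.057, 0.058 and 0.074. No member was among the 3 most like another: miR-23b came 16th for miR-23a, miR-27b 18th for miR-27a, and the cluster neighbours came later, with miR-27a 49th for miR-23a and miR-27b 28th for miR-23b.

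Some markers of other cells also differed between the groups. The 2 endothelial probes, both arms of miR-126, summed to 11.4 and 17.6 in oncogenic samples, against 223 and 400 in normal samples, and the 1 tested, miR-126-3p, fell (limma adjusted p = 0.0223). Sums for 3 red blood cell probes, of which 1 of 2 tested fell (miR-451, adjusted p = 0.00559), were 46.3 and 47.6 in oncogenic samples, against 942 and 814 in normal samples. For 2 melanocyte probes, of which the 1 tested fell (miR-204, adjusted p = 0.0319), sums were 28.0 and 17.6 in oncogenic samples, against 345 and 171 in normal samples. The 6 white blood cell probes summed to 334 and 440.3 in oncogenic samples, against 621 and 492 in normal samples, with 1 of 5 tested lower (miR-146a, adjusted p = 0.0472). They did not share a direction. miR-155, most of the oncogenic sum, had 208 and 268 in oncogenic samples, against 229 and 159 in normal samples, with overlapping groups. Its log2 difference was 0.30 (limma adjusted p = 0.702). miR-142-3p, miR-150 and miR-223 had negative log2 differences and did not pass. miR-142-5p, which was not tested, had 18.3 and 28.2 in oncogenic samples, against 10.5 and 15.5 in normal samples. Sums over 5 dermal and stromal probes were 155 and 70.4 in oncogenic samples, against 186 and 205 in normal samples, with 0 of 2 tested passing. Most of that sum was miR-152, at 122 and 51.1 in oncogenic samples, against 116 and 139 in normal samples (adjusted p = 0.558). The other tested one, miR-199a-3p, had 9.61 and 3.52 in oncogenic samples, against 42.2 and 37.0 in normal samples (log2 difference -2.55, limma adjusted p = 0.0998). No marker was at 0 in any sample. Fewer cells of a type and less of a miRNA per cell cannot be told apart in these bulk samples, and the part of these cells in the miR-23 values was not tested.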

How the data were processed

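Total RNA of 4 samples went through nanoString nCounter miRNA profiling, per the labels' protocols. The deposited values are a signal that the authors normalized, by a method not given in the sources used here. The 603 probes for miRNAs, mRNAs and viral miRNAs hold whole counts times 1 factor per sample: after division by it, 100% of values were whole within 0.1 count. Control probes are unscaled counts. Per the labels, the condition field gave the groups.

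Groups were compared two-sided in limma (version 3.58.1, under R 4.3.3) on log2(value + 1), which understates changes of low miRNAs, using eBayes with a trend of variance on mean and no replicate block. Pairs were tested in the same way after subtracting the lower member's log2 value in each sample. Single values used exact two-sided permutation tests, and 95% intervals of counts and shares were exact Poisson and Clopper-Pearson. On simulated data, the limma step was tested before use.

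Members, lists and tests were chosen with earlier results of these data known. The named miRNAs are the members, the 3 nearest profiles of each, the marker lists, and pairs whose ratio difference was further from 0 than that of the member pair beside them, of which examples are given. Names, positions and sequences came from RefSeq (GRCm38.p6), where 4 of 5 mature members matched. Alternatives were 7 scalings, pseudocounts of 10 and 30, no filter or a minimum of 100, no trend, background subtraction, leaving out each sample, the replicate block, and edgeR (version 4.0.16) and DESeq2 (version 1.42.0) on recovered counts. Of these, TMM factors in edgeR, the size factors of DESeq2 and quantile normalization of the pair ratios were chosen after seeing the data.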

Additional observations from a re-analysis of the deposited data

How the results depend on the processing

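The differences of miR-23a and miR-23b stayed negative under all 22 alternatives. Among these, no filter, a minimum of 100, no trend and the replicate block leave the estimates unchanged, so they could not turn the sign. Of the 124 miRNAs, 5 passed the threshold in the main test, 8 with centring or the 100 most abundant miRNAs, 3 with quantile normalization, positive controls or TMM factors, 1 by edgeR with TMM factors, 4 by edgeR and 9 by DESeq2 with the deposited factors, 11 by DESeq2 with its own size factors, and 1 to 26 when 1 sample was left out (26 without oncogenic replicate 1, 10 without oncogenic replicate 2, and 3 and 1 with normal replicate 1 or 2 left out). The miR-27b difference was 0.35 with centring, 0.21 with the 100 most abundant miRNAs, 0.37 with quantile normalization, 0.18 with TMM factors, 0.23 by edgeR with TMM factors and 0.16 by DESeq2 with its own factors. The miR-27a difference was -0.41 with the mRNA probes, -0.14 without Gapdh and -0.25 with positive controls, and miR-24 was -0.068 with the mRNA probes. The difference in ratio of miR-27a over miR-27b was -0.20 with quantile normalization, and that of miR-23a over miR-27a, -1.36, passed with no filter (adjusted p = 0.0332). The median of all tested miRNAs, -0.19 in the main test, moved as well. It was 0.35 with centring, 0.21 with the 100 most abundant miRNAs, 0.098 with quantile normalization and 0.18 with TMM factors. With the mRNA probes it was -0.60, without Gapdh -0.33 and with positive controls -0.44. The cause of these shifts was not tested.

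Leaving out 1 sample gave ranges of -2.03 to -0.68 for miR-23a, -1.45 to -0.46 for miR-23b, -0.20 to 0.20 for miR-27a, -0.66 to 0.28 for miR-27b and 0.17 to 0.51 for miR-24. For the ratios they were -1.83 to -0.88 (23a over 27a), -1.001 to -0.53 (23b over 27b), -0.81 to 0.017 (23a over 23b) and -0.080 to 0.47 (27a over 27b).

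With the replicate number as a block, 30 of 124 miRNAs passed, among them miR-23a (-1.35, adjusted p = 0.00179) and miR-23b (-0.96, adjusted p = 0.0318). The ratios of miR-23a over miR-27a (-1.36, adjusted p = 0.00939) and miR-23b over miR-27b (-0.76, adjusted p = 0.0303) passed too. In those fits, 24 of 123 miRNAs were called lower and 8 higher relative to miR-27a. Relative to miR-27b, 23 of 123 were called lower and 11 higher. Deviations of same-numbered samples from their group means correlated at 0.66 over 124 miRNAs, a hint from the data and not the design: no label says whether a number marks a shared animal or day, and the samples were treated as unpaired. Depth limits miR-27b most, with 60 recovered counts in oncogenic replicate 2.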
